A study of Drosophila melanogaster with 21 samples.

Results

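The 10 genes described here form the core of the Notch signalling pathway, and they were picked by gene identifier from the 17558 gene IDs of the count tables. They were the receptor Notch (N), its ligands Delta (Dl) and Serrate (Ser), the glycosyltransferase fringe (fng), the protease kuzbanian (kuz), the gamma-secretase subunit Nicastrin (Nct), the nuclear factors Suppressor of Hairless (Su(H)), mastermind (mam) and Hairless (H), and the ubiquitin ligase deltex (dx). Messenger RNA was sequenced from S2R+ cells, an embryonic Drosophila melanogaster line with features of blood cells, after depletion of proteins that write or read N6-methyladenosine (m6A) on RNA. The 6 depleted groups were Ime4, the catalytic methyltransferase subunit (gene Mettl3); CG7818, its partner (gene Mettl14); Ime4_CG7818, in which both were depleted; Fl2d, a further subunit of the writer complex (gene fl(2)d); and CG6422 and YT521, the YTH domain readers (genes Ythdf and Ythdc1). Undepleted Control cells of the same line were the reference, and each of the 7 groups had 3 libraries, 21 in all. Nothing in the labels says that the 3 libraries of a group came from separate cultures. The p-values therefore rest on the differences among these libraries, which may be technical in origin. Neither the depletion agent nor its duration is given in the labels.

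Notch is a transmembrane receptor whose ligands Delta and Serrate sit on neighbouring cells. After ligand binding it is cut by Kuzbanian and then by the gamma-secretase complex, and the released intracellular domain joins Su(H) and Mastermind on target genes, where Hairless otherwise recruits co-repressors to Su(H). In flies the pathway is best known for lateral inhibition, which singles out neural precursors, and it also acts in blood cell lineages. Among the other components, Fringe adds sugars to the receptor and changes its response to each ligand, and Deltex is a cytoplasmic ubiquitin ligase that binds the receptor and controls its trafficking.

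Levels are given in CPM, the read count of a gene scaled to a common library size. The libraries held 20214568 to 28296393 reads counted to genes (median 22126193). The depleted genes were at 8.66% to 25.8% of their Control level in the libraries labelled with their depletion, and in each case all depleted libraries lay below all Control libraries. Of 10 plasmatocyte marker genes 8 were above 1 CPM in every group, while NimC1 and eater averaged 0.0576 and 0.384 CPM in Control. The summed level of that list was 506 to 527 CPM in YT521, 511 to 551 CPM in CG6422, 522 to 548 CPM in Ime4_CG7818, 519 to 555 CPM in Ime4, 536 to 571 CPM in Fl2d, 552 to 585 CPM in CG7818 and 552 to 588 CPM in Control. The YT521, CG6422 and Ime4_CG7818 ranges lie wholly below Control, though 551 CPM in CG6422 is close to 552 CPM in Control. Within these sums Ppn was at 137% and Pxn at 84.7% of Control in Ime4_CG7818. In YT521 vkg was at 122% and Pxn at 82.3%, and in CG6422 Pxn was at 106% and Hml at 52.5%. In Fl2d single members lay on either side, with Ppn at 197% and Col4a1 at 161% of Control, and srp at 86.5% and crq at 87.5%. Crystal cell markers summed to 11.7 to 12.9 CPM in Fl2d, 7.21 to 7.55 CPM in CG6422 and 8.27 to 9.38 CPM in Control, and the other depletions overlapped Control. In Fl2d peb was at 159% of Control but PPO2 at 96.6%, and lz had only 51 reads in all 21 libraries. Lamellocyte markers, with atilla at 0 counts in every group, summed to 523 to 627 CPM in Fl2d, 529.5 to 576 CPM in CG6422, 552 to 589 CPM in Ime4_CG7818 and 617 to 659 CPM in Ime4, all below the 686 to 752 CPM in Control, while YT521 and CG7818 overlapped Control. Neural markers summed to 15.5 to 23.6 CPM over all libraries, with elav the only neural marker above 1 CPM. The part of these marker differences in the results below was not tested. Fl2d replicate 1 and YT521 replicate 2 stood apart: the mitochondrial large ribosomal RNA took 1.93% and 2.89% of their gene counts, against 5.61% to 8.62% in the others. In RNA from whole cultures, fewer cells of a type and less RNA per cell cannot be told apart.

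Of the 10 core genes 8 passed the filter on low counts, and both ligands were too low to test. Levels between genes were compared per kilobase of exon in the annotation. In Control, Nct had 40.6 CPM per kb and kuz 28.9 CPM per kb. They were followed by N with 12.9, dx with 11.2, mam with 9.73 and H with 7.52 CPM per kb. Below these came Su(H) with 2.59 and fng with 0.849 CPM per kb, and Ser had 0.0127 and Dl 0.00279 CPM per kb. Among 11668 genes with any count in Control, where the median was 4.88 CPM per kb, Nct stood at percentile 83.0, N at 62.7, Su(H) at 45.0, Ser at 6.41 and Dl at 0.489. The cells held messenger RNA of the receptor, of kuz and Nct, which act in its cleavage, and of its nuclear partners, with few or no reads of its ligands.

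**Figure D1:**
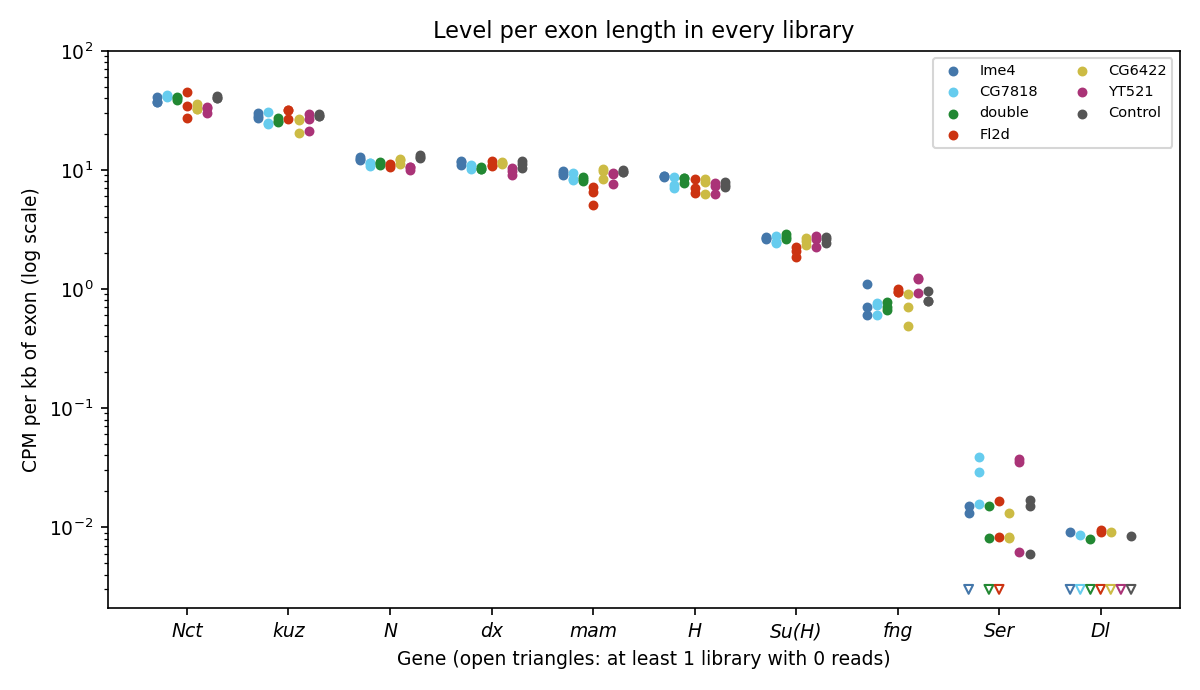
Level of each core gene in every library, in CPM per kb of exon on a log scale, with genes ordered by their Control mean and groups side by side (double, Ime4_CG7818). Nct lies highest at 40.6 CPM per kb in Control, and Ser and Dl lie far below the other genes; open triangles mark groups with at least 1 library at 0 reads.

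The ligands are transmembrane proteins that activate Notch on the next cell. Dl (FBgn0000463, chromosome 3R, 19302731 to 19326217, minus strand, build BDGP6) had 7 reads in all 21 libraries together and 0 reads in 14 of them. No library had more than 1 Dl read, and YT521 had 0 reads in its 3 libraries, which for counting error alone gives an exact Poisson 95% interval of 0 to 0.0461 CPM. Ser (FBgn0004197, 3R, 27172090 to 27194267, minus strand) had 42 reads in all and 0 to 6 per library, with 0 in 3 libraries. Its counts were 4, 5 and 2 in CG7818, 5, 6 and 1 in YT521, and 2, 1 and 2 in Control. The other groups had 3 or 4 reads each. Pooled over each group this came to 0.162 CPM in CG7818 (exact Poisson interval 0.0811 to 0.291), 0.15 CPM in YT521 (0.0775 to 0.262), 0.0441 CPM in Ime4_CG7818 (0.0091 to 0.129), the lowest, and 0.0698 CPM in Control (0.0227 to 0.163). Each depletion's interval overlaps that of Control, which is no test, and Ser was not tested at this depth. The 3 reads taken as the floor of a library correspond to 0.104 to 0.151 CPM.

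Against Control none of the 8 testable core genes passed the test as higher in any depletion. N passed as lower in 4 of the 6 depletions, and in CG7818 and Ime4_CG7818 it was the only core gene to pass. In Ime4 none passed the test, where 3.72% of all 8360 tested genes passed (1.77% higher, 1.95% lower). In CG7818 N fell, where 2.32% of all genes passed (1.1% higher, 1.22% lower). In Ime4_CG7818 N fell, where 11.4% of all genes passed (6.29% higher, 5.13% lower). In Fl2d mam, N and Su(H) fell, 3 of 8 genes where 41.3% of all genes passed (21.4% higher, 19.9% lower). In CG6422 none passed, where 19.1% of all genes did (8.88% higher, 10.2% lower). In YT521 N and dx fell, 2 of 8 genes where 6.52% of all genes passed (3.27% higher, 3.25% lower). The test was edgeR's quasi-likelihood test over all genes with Benjamini-Hochberg adjustment, and passing means an adjusted p under 0.05. In Ime4 1 core gene (H) had an unadjusted p under 0.05, as did 1502 of all 8360 tested genes, and DESeq2 called 0. In CG6422 3 core genes (Nct, N and kuz) had one, as did 2689 of all tested genes, and DESeq2 called 2 (N and Nct). The median log2 fold change of the 8 genes was -0.03 in Ime4, -0.10 in CG7818, -0.14 in Ime4_CG7818, -0.12 in Fl2d, -0.09 in CG6422 and -0.16 in YT521, whereas the medians over all tested genes were between -0.004 and 0.015. Groups without overlap are common in these data: the libraries of the depletion lay wholly above or wholly below those of Control for 27.5% of all tested genes in Ime4, 22.8% in CG7818, 34.8% in Ime4_CG7818, 45.8% in Fl2d, 37.2% in CG6422 and 27% in YT521. All 6 comparisons use the same 3 Control libraries, so they are not independent of each other.

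**Figure D2:**
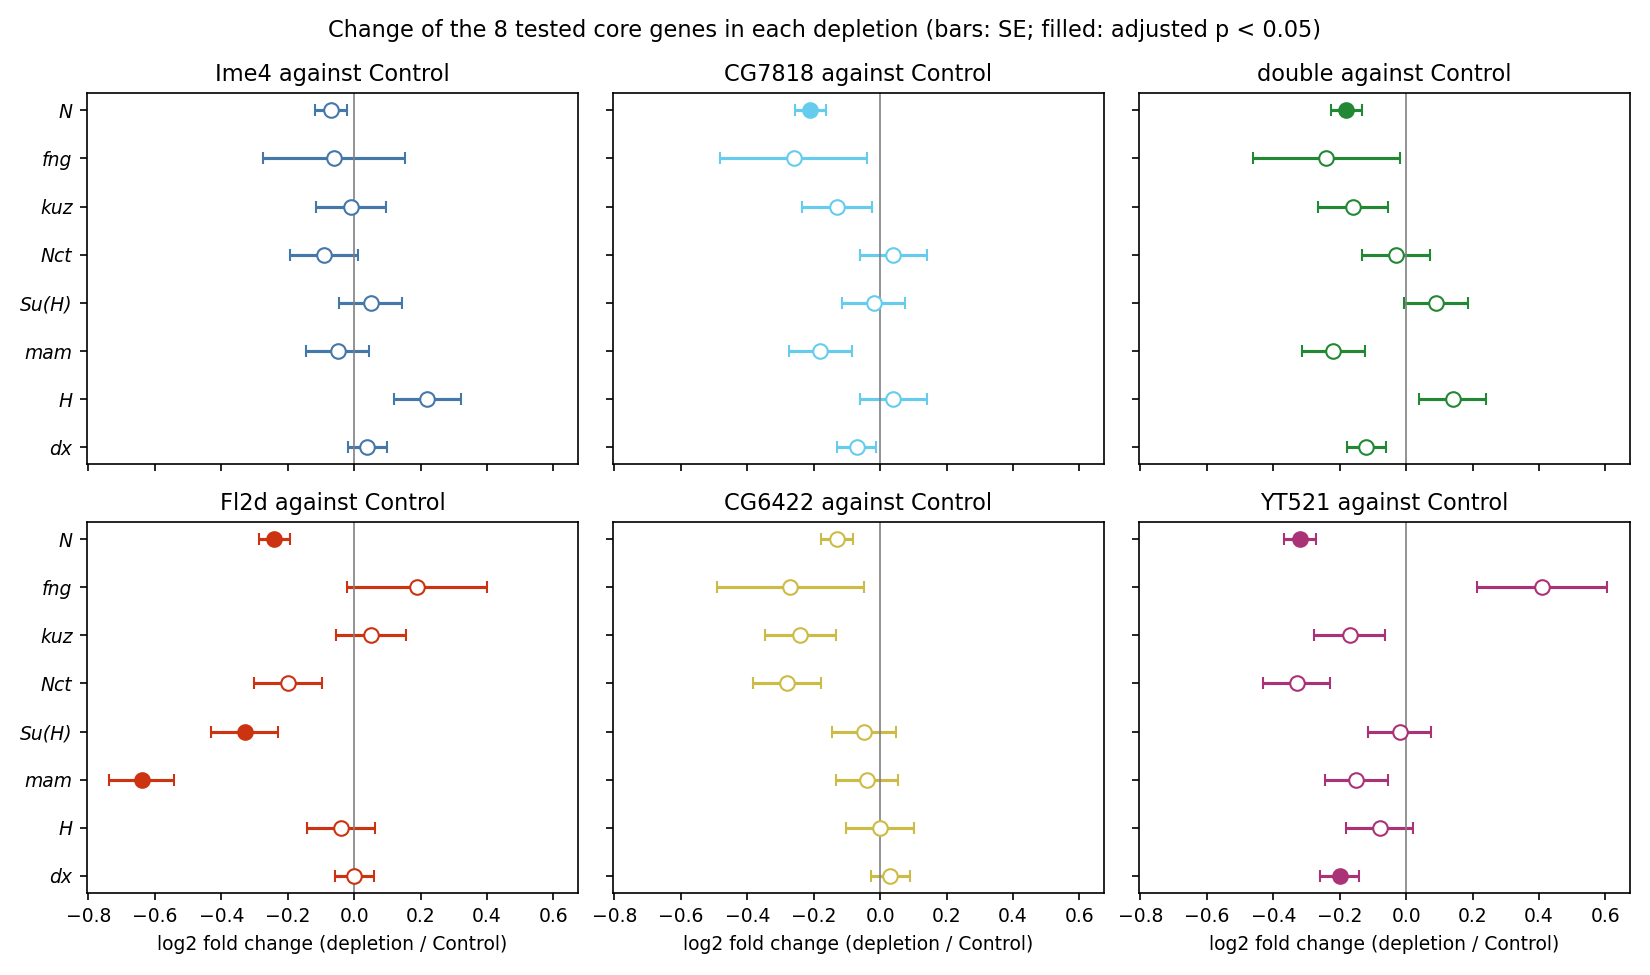
Log2 fold change of the 8 tested core genes in each depletion relative to Control (points, with bars of 1 SE; filled points passed an adjusted p of 0.05; double, Ime4_CG7818). N lies below 0 in all 6 panels and is filled in 4, and mam in Fl2d, at -0.64, is the lowest filled point.

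The receptor N (FBgn0004647, X, 3134870 to 3172221, plus strand), which encodes 2703 residues, had the highest mean in Control of all 7 groups. N had 107, 102 and 107 CPM in YT521 and 107, 112 and 114 CPM in Fl2d, against 128, 131 and 134 CPM in Control. It had 109, 116 and 116 CPM in CG7818 and 112, 119 and 116 CPM in Ime4_CG7818. The ranges of these 4 depletions lie wholly below that of Control and overlap each other in part, with YT521 lowest. N had 122, 113 and 126 CPM in CG6422 and 123, 129 and 124 CPM in Ime4, and the CG6422 libraries also lie below Control while the Ime4 range reaches into it. The mean was 105 ± 3.1 CPM in YT521 and 131 ± 3.3 CPM in Control (SD, n = 3 each). Ordered by mean, the groups ran Control, Ime4, CG6422, Ime4_CG7818, CG7818, Fl2d and YT521, and the ranges of every neighbouring pair overlapped.

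N fell in YT521 by 0.32 on the log2 scale (SE 0.0471, adjusted p = 0.000252) and in Fl2d by 0.24 (SE 0.0473, adjusted p = 0.000464), and both calls held under all 13 alternative settings, which changed the normalisation, the filter, the tool or the libraries used. It fell in CG7818 by 0.21 (SE 0.0471, adjusted p = 0.0185). That call was lost without CG7818 replicate 1 (adjusted p = 0.109), without Control replicate 2 (0.0759) and without Control replicate 3 (0.0888). In Ime4_CG7818 N fell by 0.18 (SE 0.0471, adjusted p = 0.0156), and the call was lost without Ime4_CG7818 replicate 1 (adjusted p = 0.0828), Control replicate 2 (0.0621) or Control replicate 3 (0.0633). The log2 fold change of N was -0.13 in CG6422 (SE 0.0471, adjusted p = 0.0665), where DESeq2 gave an adjusted p of 0.0496 and leaving out CG6422 replicate 3 gave 0.0492. In Ime4 it was -0.07 (SE 0.047, adjusted p = 0.474).

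**Figure D3:**
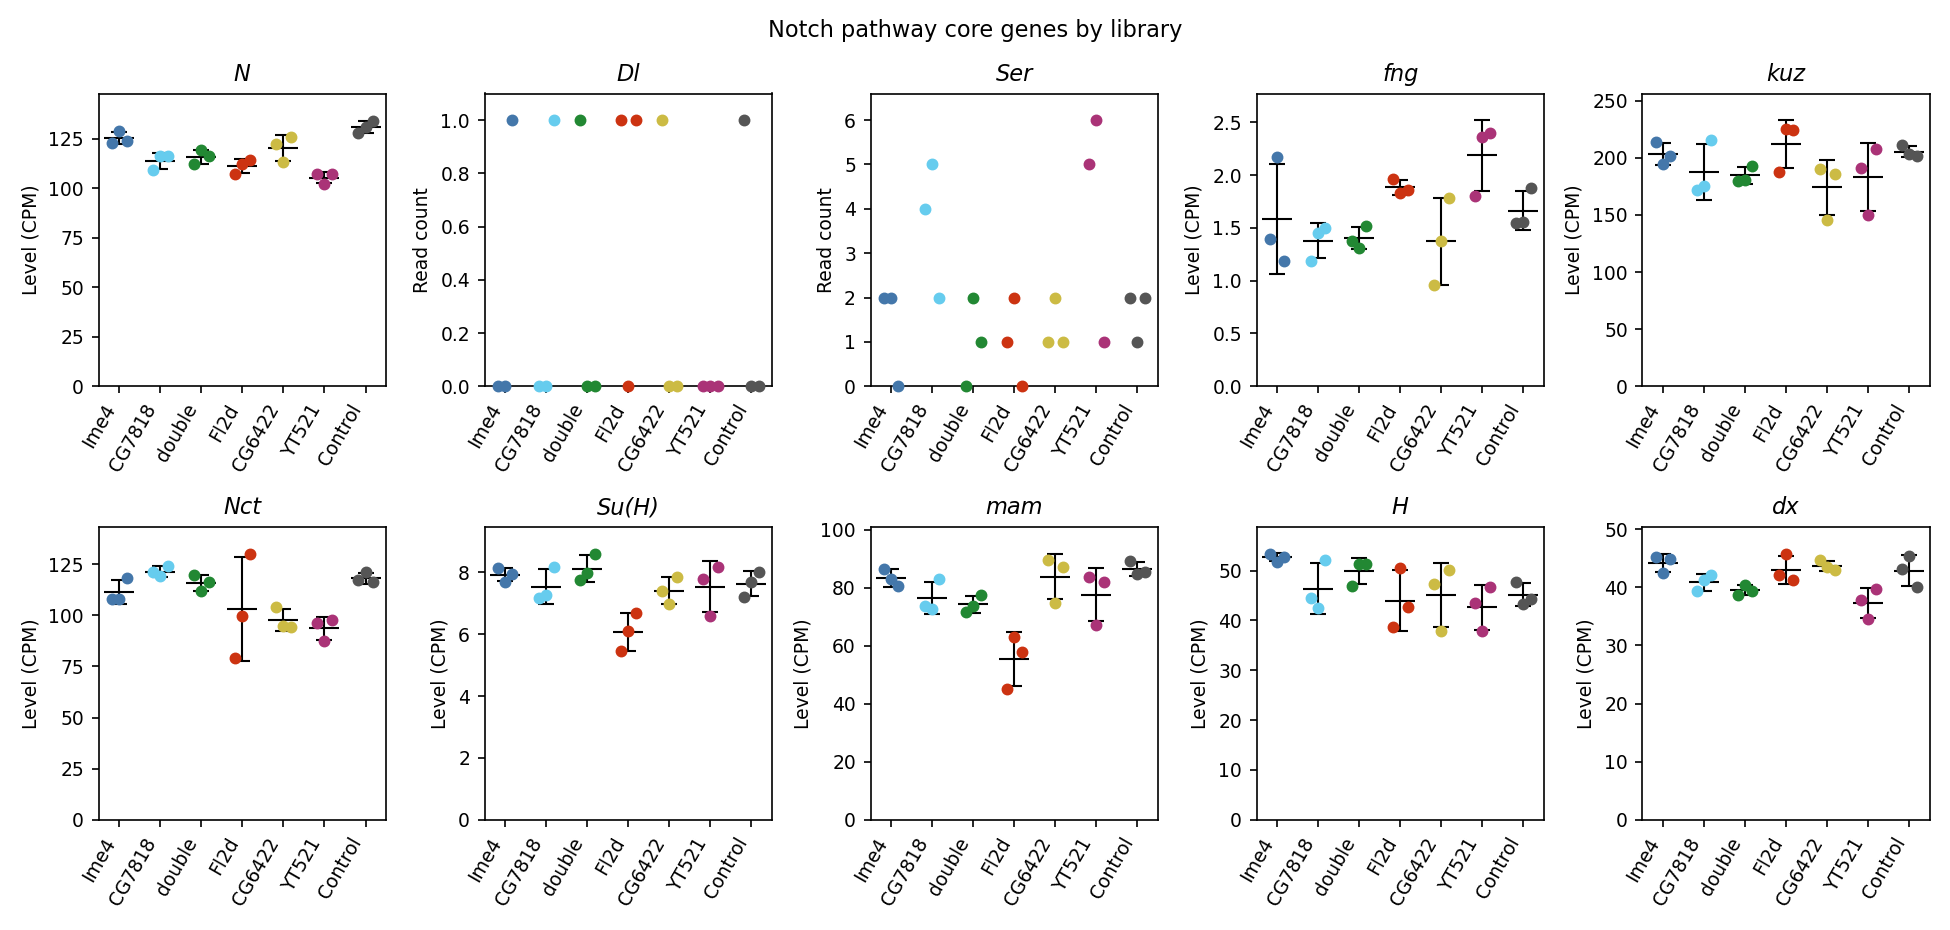
Level of the 10 core genes in each library, in CPM (in reads for Dl and Ser, which were too low to test), by group with Control at the right (double, Ime4_CG7818); the horizontal line is the group mean and the bars span 1 SD on either side. The 3 Fl2d libraries of mam, at 45, 63.1 and 57.8 CPM, lie below every other library of that gene, and the Dl panel shows at most 1 read.

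The protease and the gamma-secretase subunit that act in cutting the receptor had no call against Control. Kuz (FBgn0259984, 2L, 13550139 to 13639411, plus strand) encodes the ADAM metalloprotease that makes the first ligand-dependent cut. It had 191, 150.2 and 208 CPM in YT521, 188, 225 and 224 CPM in Fl2d, 190.2, 146 and 186 CPM in CG6422, and 211, 203 and 202 CPM in Control. The kuz libraries of CG6422 all lie below Control, but YT521 and Fl2d spread across it. The log2 fold change of kuz was -0.24 in CG6422 (SE 0.106, adjusted p = 0.123), which passed with no low-count filter (0.00759) and with only the compared groups in the model (0.0442). In Ime4_CG7818 kuz was at -0.16 (SE 0.106, adjusted p = 0.397) and passed only with the compared groups alone (0.0122). The remaining values were -0.17 in YT521, -0.13 in CG7818, -0.01 in Ime4 and 0.05 in Fl2d.

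Nct (FBgn0039234, 3R, 24851601 to 24854869, plus strand) encodes a subunit of gamma-secretase, the complex that makes the intramembrane cut. Nct had 96.3, 87.3 and 97.6 CPM in YT521 and 104, 94.8 and 94.3 CPM in CG6422, against 117, 121 and 116 CPM in Control. All 6 libraries of the reader depletions lie below all 3 of Control. The log2 fold change of Nct was -0.33 in YT521 (SE 0.102, adjusted p = 0.0522) and -0.28 in CG6422 (SE 0.102, adjusted p = 0.0633), both just short of passing. In YT521 Nct passed under DESeq2 (0.0291), with no low-count filter (0.000383), with the compared groups alone (0.00548) and without both libraries low in the mitochondrial RNA (0.0192). In CG6422 it passed under DESeq2 (0.0456), with no low-count filter (0.00211) and with the compared groups alone (0.00278). Nct in Fl2d had 79.3, 99.7 and 130.1 CPM, the lowest and the highest Nct libraries of the series in the same group, so that its log2 fold change was -0.20 (SE 0.102, adjusted p = 0.128). Without Fl2d replicate 3 Nct was at -0.42 in Fl2d (adjusted p = 0.000226), and with no low-count filter at -0.21 (0.0139). In Ime4, CG7818 and Ime4_CG7818 Nct was at -0.09, 0.04 and -0.03, with adjusted p between 0.712 and 0.91. Of the exon bases of Nct 12.87% also lie in exons of HDAC11 on the opposite strand. No source used here says whether strand was used in counting, so how reads in that stretch were counted is not known.

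Fringe elongates sugar chains on the receptor. Its gene fng (FBgn0011591, 3L, 20925891 to 20949512, minus strand) was the lowest of the tested members, with 20 to 67 reads per library. It had 1.8, 2.36 and 2.4 CPM in YT521, 0.955, 1.38 and 1.78 CPM in CG6422, and 1.55, 1.56 and 1.88 CPM in Control. The YT521 libraries lie above those of CG6422 by a narrow margin and overlap Control. The log2 fold change of fng relative to Control was 0.41 in YT521 (SE 0.196, adjusted p = 0.229) and -0.27 in CG6422 (SE 0.22, adjusted p = 0.436), and it passed in no comparison with Control. Compared directly, fng was higher in YT521 than in CG6422 by 0.67 (SE 0.205, adjusted p = 0.0322). The fng call did not hold when YT521 replicate 2 (adjusted p = 0.103) or 3 (0.119) was left out, nor without CG6422 replicate 1 (0.143) or CG6422 replicate 2 (0.0953), without both libraries low in the mitochondrial RNA (0.0859), and with only these groups in the model (0.0911).

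Mastermind is the co-activator that clamps the Notch intracellular domain to Su(H) and recruits histone acetyltransferase. Its gene mam (FBgn0002643, 2R, 13991203 to 14060356, plus strand) had 45, 63.1 and 57.8 CPM in Fl2d, against 89, 84.6 and 85.3 CPM in Control. The mean was 55.3 ± 9.3 CPM in Fl2d and 86.3 ± 2.4 CPM in Control (SD, n = 3 each). Every Fl2d library lies below every library of the other 6 groups, whose lowest value, in YT521 replicate 2, was 67.2 CPM. Mam fell in Fl2d by 0.64 on the log2 scale (SE 0.0967, adjusted p = 2.27e-05), to 64.1% of Control, and this was the largest change of a core gene that passed against Control. The call held under all 13 alternatives, with log2 fold changes from -0.75 to -0.51. Fl2d replicate 1, a library low in the mitochondrial RNA, was the lowest, and without it mam was still at -0.51 (adjusted p = 0.000104). Elsewhere mam was at -0.22 in Ime4_CG7818 (SE 0.0949, adjusted p = 0.153), where its 3 libraries, 71.5, 73.7 and 77.5 CPM, lay below Control and it passed with no low-count filter (0.0343) and with the compared groups alone (0.00305). It was at -0.18 in CG7818, -0.15 in YT521, -0.05 in Ime4 and -0.04 in CG6422, with adjusted p between 0.367 and 0.838.

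Su(H) (FBgn0004837, 2L, 15039488 to 15043334, plus strand) encodes the DNA-binding factor of the pathway, homologous to mammalian RBPJ. It had 5.45, 6.1 and 6.68 CPM in Fl2d, against 7.21, 7.68 and 8.01 CPM in Control. The Fl2d libraries lie below Control without overlap. Su(H) fell in Fl2d by 0.33 on the log2 scale (SE 0.101, adjusted p = 0.0122), to 79.6% of Control. The call was lost without Fl2d replicate 1 (log2 fold change -0.26, adjusted p = 0.0766) and with only Fl2d and Control in the model (adjusted p = 0.0545). In the other depletions Su(H) was between -0.05 and 0.09, with adjusted p of 0.637 or more.

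H (FBgn0001169, 3R, 20621938 to 20628915, plus strand) encodes the adaptor that turns Su(H) into a repressor. It had 53.4, 51.8 and 52.8 CPM in Ime4, against 47.8, 43.4 and 44.4 CPM in Control. The Ime4 libraries of H lie above Control without overlap. The log2 fold change of H in Ime4 was 0.22 (SE 0.101, adjusted p = 0.246), the largest positive value of a core gene in a writer depletion, and it passed only with the compared groups alone in the model (0.0198). In the other depletions H was between -0.08 and 0.14, with adjusted p of 0.42 or more. In Fl2d, where mam and Su(H) fell, H had 38.7, 50.6 and 42.6 CPM, a range that spans Control, and its log2 fold change was -0.04 (SE 0.103, adjusted p = 0.789).

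Dx (FBgn0000524, X, 6533999 to 6538575, plus strand) had 37.8, 34.6 and 39.7 CPM in YT521, against 43.2, 45.4 and 40.04 CPM in Control. The groups do not overlap, but YT521 replicate 3 and Control replicate 3 are close. Dx fell in YT521 by 0.20 on the log2 scale (SE 0.0586, adjusted p = 0.0423), and it was called in 6 of 13 alternatives. The adjusted p was 0.085 without YT521 replicate 1, 0.179 without YT521 replicate 2, 0.1 without Control replicate 1 and 0.227 without Control replicate 2. It was also 0.0845 with no low-count filter, 0.0971 with the compared groups alone and 0.127 without both libraries low in the mitochondrial RNA. In Ime4_CG7818 dx was at -0.12 (SE 0.0589, adjusted p = 0.21), and in the remaining depletions between -0.07 and 0.04, with adjusted p of 0.634 or more.

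**Figure D4:**
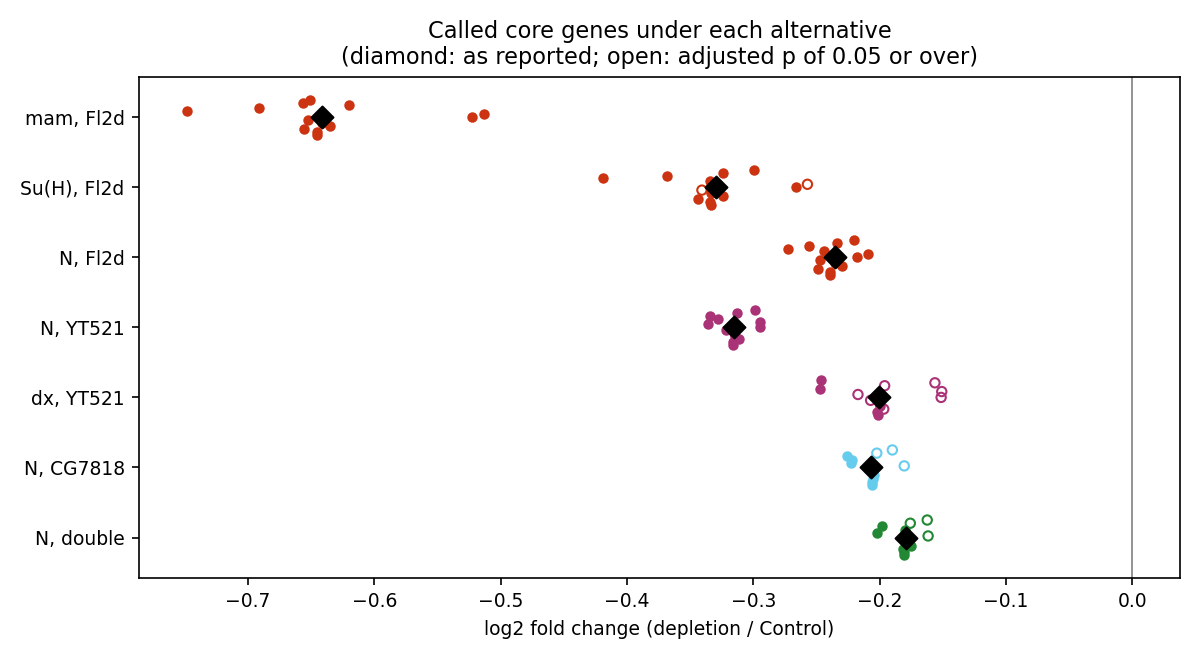
Log2 fold change relative to Control of each core gene called in a depletion (diamond) and under each alternative setting (points; open points have an adjusted p of 0.05 or more; double, Ime4_CG7818). All points lie below 0; mam and N in Fl2d and N in YT521 stay filled throughout, whereas dx in YT521 is open in 7 of 13 alternatives.

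Where depletions were compared directly, Fl2d had lower mam and Su(H) than both Ime4_CG7818 and YT521. Fl2d was lower than Ime4_CG7818 in mam by 0.42 on the log2 scale (SE 0.0972, adjusted p = 0.00185) and in Su(H) by 0.42 (SE 0.1, adjusted p = 0.00276), both held in all 13 alternatives, while 36.9% of all genes passed in that comparison (18.3% lower). Fl2d was also lower than YT521 in mam by 0.49 (SE 0.0966, adjusted p = 0.000418), held in all 13 alternatives, and in Su(H) by 0.31 (SE 0.0994, adjusted p = 0.0177), where 39% of all genes passed (20.2% higher, 18.9% lower). The Su(H) call between Fl2d and YT521 was lost without Fl2d replicate 1 (adjusted p = 0.0991), YT521 replicate 1 (0.0518) or YT521 replicate 3 (0.0916) and with only these groups in the model (0.118). Su(H) had 7.79, 6.6 and 8.18 CPM in YT521, which overlaps the highest Fl2d library at 6.68 CPM. N did not pass between Fl2d and Ime4_CG7818 (-0.06, SE 0.0475, adjusted p = 0.366) or between Fl2d and YT521 (0.08, SE 0.0474, adjusted p = 0.19). Dx was higher in Fl2d than in YT521 by 0.20 (SE 0.059, adjusted p = 0.00893), a call lost without Fl2d replicate 2 (0.0569), YT521 replicate 2 (0.0801) or both libraries low in the mitochondrial RNA (0.0719), and with only these groups in the model (0.0955). In Fl2d against YT521, Nct passed without Fl2d replicate 1 (0.29, adjusted p = 0.0062) and without both libraries low in the mitochondrial RNA (0.24, 0.0288). Kuz passed there without Fl2d replicate 1 (0.29, 0.0461) or YT521 replicate 3 (0.31, 0.0376) and with no low-count filter (0.19, 0.0235). In Fl2d against Ime4_CG7818, Nct passed without Fl2d replicate 3 (-0.38, 0.00068) and with no low-count filter (-0.18, 0.0474), H without Fl2d replicate 2 (-0.30, 0.0315), and kuz without both libraries low in the mitochondrial RNA (0.27, 0.0263) and with no low-count filter (0.19, 0.0302).

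Between the readers, YT521 was lower than CG6422 in N and dx and higher in fng, where 12.9% of all genes passed (6.67% higher, 6.21% lower). N was lower by 0.19 (SE 0.0472, adjusted p = 0.00983) and dx by 0.23 (SE 0.0587, adjusted p = 0.0132). The N call was lost without YT521 replicate 2 (0.0607) or CG6422 replicate 3 (0.0662) and with only these groups in the model (0.0662), and the dx call without YT521 replicate 2 (0.0961), without both libraries low in the mitochondrial RNA (0.0688) and with only these groups in the model (0.0582). Dx in CG6422 had 44.7, 43.5 and 43 CPM, all above the 3 YT521 libraries. Within the methyltransferase none of the core genes differed by the test. CG7818 against Ime4 called 0 of 8 (DESeq2 called 0), where 0.502% of all genes passed. There 1 core gene had an unadjusted p under 0.05, beside 1156 of all 8360 tested genes. Ime4_CG7818 called 0 of 8 against Ime4 (DESeq2 called 0), where 0.156% of all genes passed. There 2 core genes had an unadjusted p under 0.05, beside 804 of all tested genes. Ime4_CG7818 also called 0 against CG7818 (DESeq2 called 0), where 2.17% of all genes passed. There 0 core genes had an unadjusted p under 0.05, beside 1431 of all tested genes. Whether the double depletion differed from the sum of the single ones was asked with an interaction term. It called 0 of 8 genes (DESeq2 called 0) and 0.108% of all genes. At an unadjusted p under 0.05 there were 0 core genes, beside 681 of all tested genes. The value of the interaction term for N was 0.10 (SE 0.0667, adjusted p = 0.802).

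The libraries of a group also differed among themselves in a shared way. YT521 replicate 2 was the lowest of its group for 7 of the 8 tested members, all but fng, and Fl2d replicate 1 and Ime4_CG7818 replicate 1 for 6 each. Over all tested genes these libraries were the lowest of their groups for 32.8%, 38.8% and 34.1%. The first 2 of these are the libraries low in the mitochondrial RNA, and the results with and without them are given above.

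By the likeness of their levels over the 21 libraries, which share cells, groups and depth, the genes nearest to N were Syn1 (Pearson r = 0.812), CG31041 (0.795) and EndoB (0.778). Those nearest to mam were CG32700 (0.959), uex (0.952) and CG10417 (0.951), and those nearest to dx were ced-6 (0.823), gfzf (0.812) and MESR3 (0.799). Syn1 had 40.1 ± 4.1 CPM in YT521, 42.9 ± 1.3 CPM in Fl2d and 53 ± 0.68 CPM in Control. EndoB had 44.1 ± 3.8 CPM in YT521, 41.1 ± 1 CPM in Fl2d and 51.7 ± 0.23 CPM in Control. CG31041 averaged 0.492 CPM in Control and 0.0992 CPM in YT521, the latter below the lowest floor of a library, 0.104 CPM. CG32700 had 28.3 ± 7.9 CPM in Fl2d and 66 ± 9 CPM in Control, and MESR3 had 203 ± 18 CPM in YT521 and 271 ± 9.4 CPM in Control (SD, n = 3 each). Gfzf, also near dx, had 89.1 ± 1.3 CPM in YT521 and 93.9 ± 1.9 CPM in Control and was not called there. These correlations are descriptions over libraries of 7 groups and carry no test. Of the tested members kuz (89.273 kb, longest intron 51 kb), mam (69.154 kb, longest intron 27.5 kb), N (37.352 kb) and fng (23.622 kb) span 20 kb or more. In Fl2d the 625 tested genes with a span of 20 kb or more had a median log2 fold change of -0.10 and 32.2% of them fell, against 0.03 and 17.5% of the 6912 genes under 10 kb. The same groups of genes had medians of -0.12 and 0.03 in CG6422, with 21.8% and 7.84% lower, and of -0.07 and 0.00 in Ime4_CG7818, with 11.4% and 4.28% lower. In YT521 the medians were -0.03 and 0.01, with 7.68% and 2.65% lower. They were -0.03 and 0.00 in CG7818, with 2.88% and 1.01% lower, and -0.02 and 0.01 in Ime4, with 3.36% and 1.77% lower. Of the 4 long members mam and N fell in Fl2d by the values given above, fng was at 0.19 (SE 0.211, adjusted p = 0.503) and kuz at 0.05 (SE 0.106, adjusted p = 0.758). The part of gene length in these values was not tested.

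In the wider pathway, 39 of 55 further genes with a role in Notch signalling could be tested, and most calls were in Fl2d. There 9 rose and 10 fell, beside the 21.4% and 19.9% of all tested genes given above. By edgeR's test 0 of the 39 passed in Ime4 and 0 in CG7818. In Ime4 10 had an unadjusted p under 0.05, beside 1502 of all 8360 tested genes, and DESeq2 called 2. In CG7818 3 had one, beside 1256 of all tested genes, and DESeq2 called 0. In Ime4_CG7818 0 rose and 2 fell, beside 6.29% and 5.13% of all tested genes. In CG6422 1 rose and 2 fell, beside 8.88% and 10.2%, and in YT521 1 rose and 0 fell, beside 3.27% and 3.25%. The median log2 fold change of the 39 was -0.03 in Fl2d, 0.02 in YT521, 0.00 in CG6422, -0.01 in Ime4_CG7818, -0.01 in CG7818 and 0.01 in Ime4.

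Among genes that modify and fold the receptor, O-fut1, which adds the fucose that Fringe extends, had 128, 127 and 126 CPM in Fl2d, 213, 208 and 197 CPM in CG6422, and 173, 172 and 178 CPM in Control. The Fl2d libraries lie below and the CG6422 libraries above Control. O-fut1 fell in Fl2d by 0.46 (SE 0.0445, adjusted p = 6.85e-08) and rose in CG6422 by 0.24 (SE 0.0439, adjusted p = 0.000937). The protein O-glucosyltransferase rumi had 51.8, 50.9 and 45.7 CPM in Fl2d, against 33.5, 33.2 and 32 CPM in Control, and rose by 0.59 (SE 0.0655, adjusted p = 4.78e-07). Both calls in Fl2d held in all 13 alternatives and that in CG6422 in all 12. Exons of rumi share 2.803% of their bases with CG31139 on the same strand.

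Of the genes that act in ligand-sending cells, aux, an auxilin that acts in clathrin uncoating, had 51.4, 54.7 and 57.2 CPM in Fl2d, 63.1, 60.3 and 60.7 CPM in CG6422, and 72.4, 68 and 69.2 CPM in Control. Both depletions lie below Control without overlap. Aux fell in Fl2d by 0.36 (SE 0.051, adjusted p = 1.1e-05) in all 13 alternatives, and in CG6422 by 0.19 (SE 0.0505, adjusted p = 0.0133), a call lost without CG6422 replicate 2 (0.0589) or Control replicate 1 (0.0641). The epsin lqf fell in Fl2d by 0.17 (SE 0.0541, adjusted p = 0.0146), lost without Fl2d replicate 3 (0.0557) or Control replicate 1 (0.0839) and with only these groups in the model (0.0653), and 11.92% of its exon bases lie in exons of CG16998 on the other strand. The ubiquitin ligases of the ligands, neur and mib1, were at 0.02 and -0.10 in Fl2d and did not pass.

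Among proteolysis genes, the gamma-secretase subunit aph-1 rose in Fl2d by 0.18 (SE 0.0571, adjusted p = 0.0143) and fell in Ime4_CG7818 by 0.20 (SE 0.0575, adjusted p = 0.0245). It had 98.1, 93.4 and 81.4 CPM in Fl2d, 66.7, 75.1 and 67.3 CPM in Ime4_CG7818, and 81.5, 79.6 and 79.5 CPM in Control, so the Fl2d range starts just below the highest Control library. The Fl2d call was lost without Fl2d replicate 1 (0.1), without both libraries low in the mitochondrial RNA (0.126) and with only these groups in the model (0.113). The Ime4_CG7818 call was lost without Ime4_CG7818 replicate 1 (0.115) or 3 (0.0998), or without Control replicate 1 (0.0774), 2 (0.0708) or 3 (0.0508). Furin 1 (Fur1), a proprotein convertase, rose in Fl2d by 0.20 (SE 0.0554, adjusted p = 0.0056) in all 13 alternatives. In CG6422 Fur1 fell by 0.16 (SE 0.0556, adjusted p = 0.048), lost without CG6422 replicate 2 (0.299) or without Control replicate 1 (0.102), 2 (0.135) or 3 (0.0776), with no low-count filter (0.0706) and with only these groups in the model (0.0641). Tace, the other ADAM protease listed, averaged 0.666 ± 0.22 CPM in Fl2d and 0.348 ± 0.3 CPM in Control, with Control replicate 3 within the Fl2d range, and its call (log2 fold change 1.03, SE 0.41, adjusted p = 0.0491) was kept in 4 of 12 alternatives. It was lost without Fl2d replicate 2 (0.188) or 3 (0.104), or without Control replicate 1 (0.186) or 2 (0.243).

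Of 9 genes of receptor endocytosis and trafficking, spdo, which acts with Numb in sensory lineages, rose in Fl2d. It had 4.01, 3.89 and 4.52 CPM in Fl2d, against 1.73, 2.05 and 2.03 CPM in Control, without overlap, a rise of 1.09 on the log2 scale (SE 0.165, adjusted p = 2.37e-05) that held in all 13 alternatives. The ESCRT genes shrb and TSG101 fell in Fl2d by 0.34 (SE 0.0837, adjusted p = 0.00256) and 0.18 (SE 0.0449, adjusted p = 0.00365), and the ubiquitin ligase Su(dx) by 0.14 (SE 0.0433, adjusted p = 0.0145). TSG101 held in all 13 alternatives. Shrb was lost with only these groups in the model (0.0509), and Su(dx) when Fl2d replicate 1 (0.0724) or Control replicate 1 (0.0729) was left out or with only these groups in the model (0.0742).

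Of 11 nuclear co-factors, 4 rose and 3 fell in Fl2d, beside 21.4% and 19.9% of all tested genes. The co-repressor groucho (gro), which Hairless recruits, had 266, 271 and 274 CPM in YT521, 279, 281 and 255 CPM in Fl2d, and 235, 232 and 242 CPM in Control. Both depletions lie above Control. Gro rose in YT521 by 0.19 (SE 0.0451, adjusted p = 0.0119), lost without Control replicate 2 (0.0664), and in Fl2d by 0.20 (SE 0.0453, adjusted p = 0.0014) in all 13 alternatives. Exons of gro share 4.063% of their bases with Exo84 on the other strand. Nipped-A, a subunit of histone acetyltransferase complexes, had 14.6, 33.1 and 25.8 CPM in Fl2d, against 48.9, 41.2 and 41.1 CPM in Control, and fell by 0.83 (SE 0.188, adjusted p = 0.00133). Its Fl2d libraries spread widely, with replicate 1 lowest, and the call held in all 13 alternatives with values from -1.12 to -0.57. The Mediator kinase-module gene skd rose in Fl2d by 0.34 (SE 0.0955, adjusted p = 0.0068), lost without Fl2d replicate 3 (0.0668), and ago, an F-box gene known in growth control, by 0.15 (SE 0.0406, adjusted p = 0.00678), lost without both libraries low in the mitochondrial RNA (0.0549), with no low-count filter (0.0859) and with only these groups in the model (0.0857). The histone acetyltransferase nej rose by 0.22 (SE 0.0825, adjusted p = 0.0382) and was called in 6 of 13 alternatives. The nej call was lost when any 1 of the 6 libraries was left out (adjusted p = 0.0546 to 0.125). The co-repressor CtBP fell by 0.23 (SE 0.069, adjusted p = 0.0124), lost without Fl2d replicate 1 (0.064) or Control replicate 1 (0.0588). Cyclin C (CycC), of the Mediator kinase module, fell by 0.18 (SE 0.0673, adjusted p = 0.0399), lost when any library but Fl2d replicate 3 was left out (0.0711 to 0.114) and called in 6 of 13 alternatives. Exons of CycC share 12.52% of their bases with CG33332 on the other strand, and those of nej 3.05% and 2.649% with a pair of TART transposon insertions on the same strand.

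**Figure D5:**
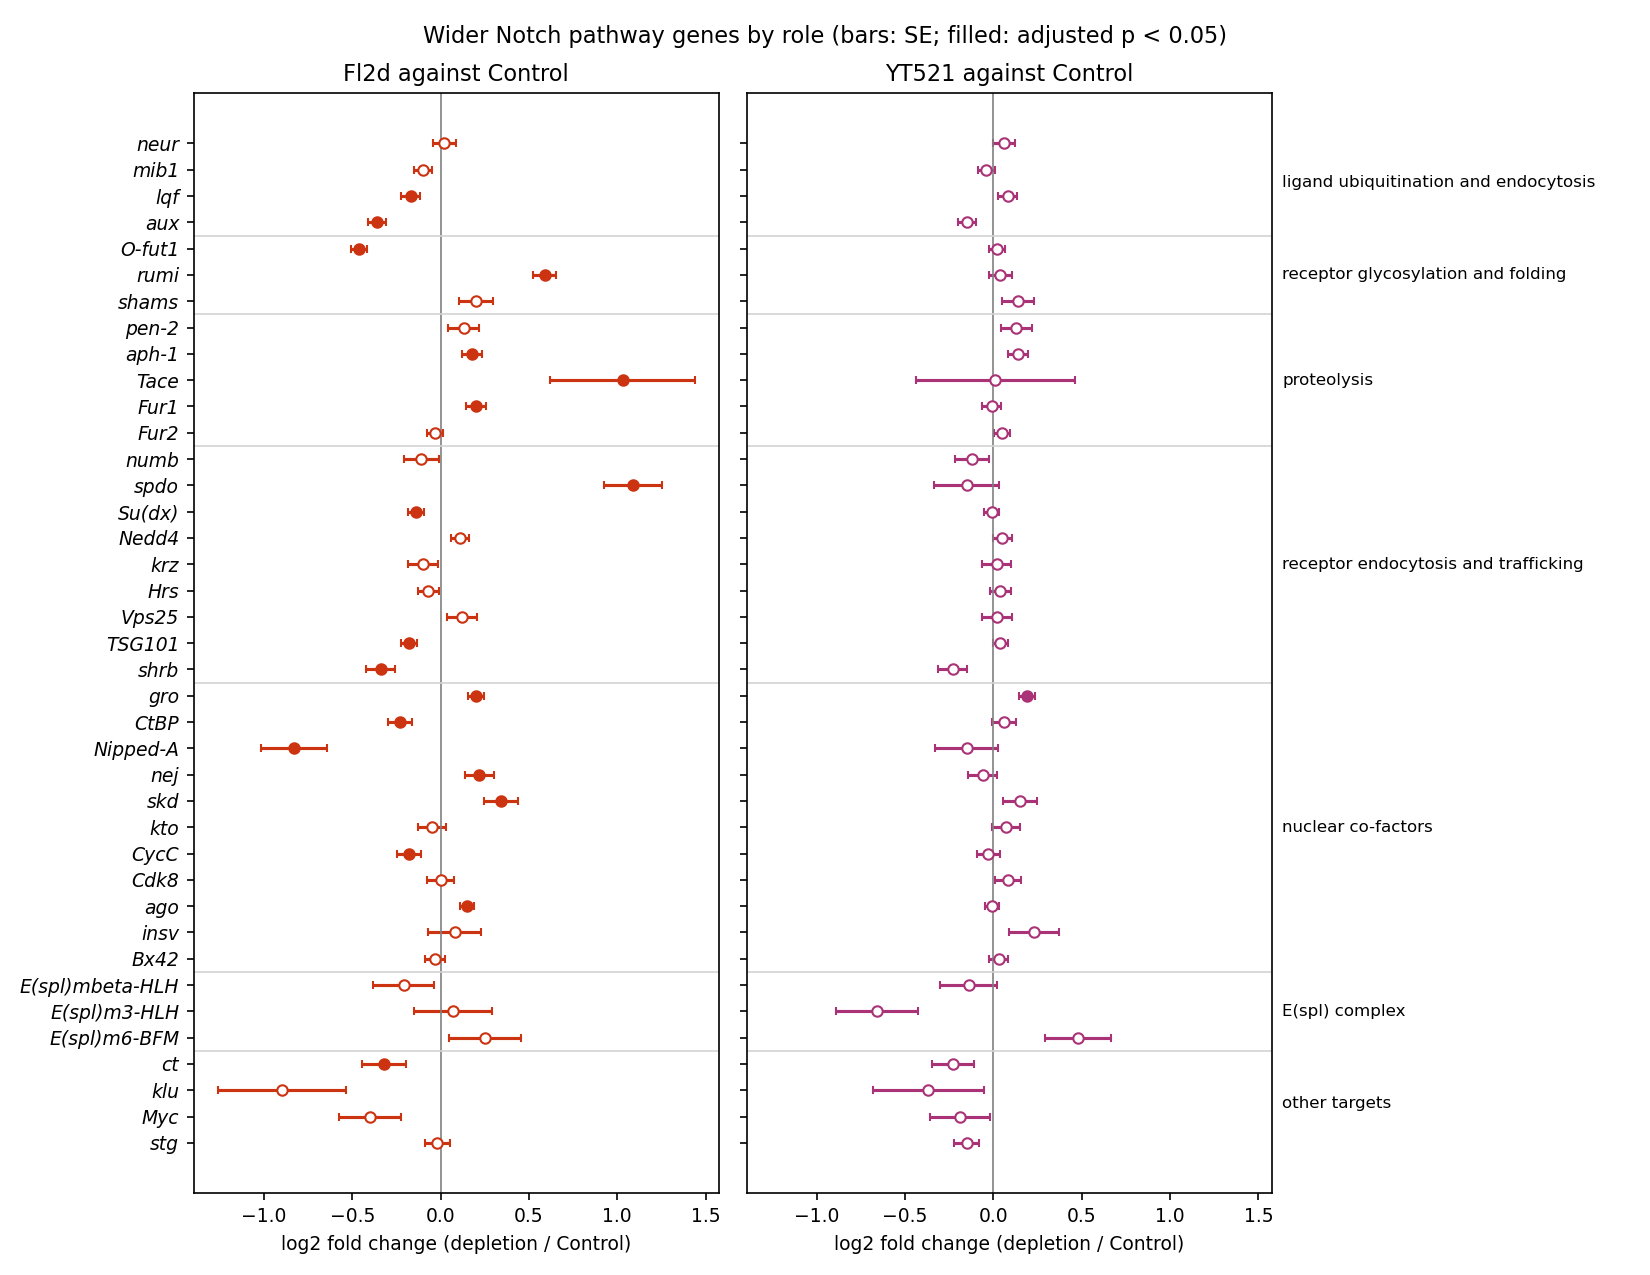
Log2 fold change of the 39 tested genes of the wider pathway in Fl2d (left) and YT521 (right) relative to Control, grouped by role (points with bars of 1 SE; filled points passed an adjusted p of 0.05). In Fl2d 9 filled points lie above 0 and 10 below, where 21.4% of all tested genes rose and 19.9% fell. In YT521 only gro, at 0.19, is filled, where 3.27% rose and 3.25% fell.

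Most of the genes that Notch signalling is known to switch on had few reads. Of 11 genes of the E(spl) complex, whose basic helix-loop-helix and Bearded-family members are direct targets in many fly tissues, 8 were too low to test, with 1 to 60 reads over all 21 libraries and at most 6 in any library. The others, E(spl)mbeta-HLH, E(spl)m3-HLH and E(spl)m6-BFM, averaged 2.83 ± 0.36, 1.88 ± 0.32 and 1.12 ± 0.15 CPM in Control (SD, n = 3 each). By edgeR's test 0 of the 3 passed in any depletion. At an unadjusted p under 0.05 there was 1 in Ime4, 2 in Ime4_CG7818 and 2 in YT521, and DESeq2 called 0. Of all 8360 tested genes 1502, 2063 and 1801 had such a p in these depletions. The 2 in YT521 moved in opposite directions. There the log2 fold change was -0.66 for E(spl)m3-HLH (SE 0.231, adjusted p = 0.0898) and 0.48 for E(spl)m6-BFM (SE 0.187, adjusted p = 0.126). E(spl)m3-HLH was nearest, at 1.17, 1.44 and 0.808 CPM in Ime4_CG7818, all below the 1.95, 2.16 and 1.53 CPM in Control (log2 fold change -0.73, SE 0.242, adjusted p = 0.0544). E(spl)mbeta-HLH was at -0.52 there (SE 0.176, adjusted p = 0.0583). In Ime4_CG7818 E(spl)m3-HLH passed in 5 of 12 alternatives: without Ime4_CG7818 replicate 2 (0.0476) or Control replicate 3 (0.0433), with no low-count filter (0.0269), with a replicate block (0.0454) and with only these groups in the model (0.0305). E(spl)mbeta-HLH passed there in 2 of 12, without Ime4_CG7818 replicate 3 (0.0493) and with only these groups in the model (0.0406), and in Ime4 without Ime4 replicate 3 (0.0429). Of 11 other targets 7 were too low to test, Hey with 5 reads and lz with 51 in all libraries among them. The homeobox gene ct fell in Fl2d by 0.32 (SE 0.123, adjusted p = 0.0444), with an adjusted p of 0.0505 to 0.119 whenever any 1 of the 6 libraries was left out. Klu and Myc did not pass in Fl2d, at -0.90 (SE 0.362, adjusted p = 0.0525) and -0.40 (SE 0.173, adjusted p = 0.0708). Klu passed in 1 of 12 alternatives there and Myc in 5 of 13. Exons of Myc share 40.94% of their bases with CG12535 on the other strand. The phosphatase gene stg fell in Ime4_CG7818 by 0.26 (SE 0.0712, adjusted p = 0.0204), lost without Ime4_CG7818 replicate 1 (0.0937) or 2 (0.059), or without Control replicate 1 (0.0527) or 2 (0.118).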

How the data were processed

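The authors deposited raw read counts per gene, 1 table per library; per the submitters' processing notes the tools were STAR 2.4.0h, CASAVA 1.8.4, DESeq2 1.6.3 and HTSeq 0.6.1, on build BDGP6. Per the labels' protocols, poly(A) RNA was made into Illumina libraries. Neither the strand setting nor the annotation release is given in the sources used here. Groups follow the sample titles; the genotype field of the Ime4_CG7818 libraries names only Ime4. Summary lines that name no gene were left out (11% to 18.7% of reads aligned to several places, 1.46% to 1.91% outside genes, 0.723% to 0.893% ambiguous). Coordinates, exon lengths and spans come from an Ensembl annotation of the same assembly, in which 17252 of the 17558 IDs have an entry.

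All 21 libraries were fitted together with edgeR 4.0.16 (R 4.3.3, limma 3.58.1): TMM normalisation, filterByExpr with a minimum count of 10 (8360 genes), glmQLFit and glmQLFTest with 14 residual degrees of freedom, and Benjamini-Hochberg adjustment over all genes tested. The SE is the log2 fold change divided by the square root of F. CPM uses TMM-scaled library sizes, and these depths limit the precision of genes with few reads. Genes with many reads can still vary between libraries. Kuz in YT521 had 4145 to 5794 reads per library and 183 ± 30 CPM (SD, n = 3). Alternatives were RLE size factors, DESeq2 1.42.0, no filter, a mean of at least 1 CPM, a replicate block (the labels do not say what a replicate number marks; same-numbered CG7818 and Ime4_CG7818 libraries had correlated deviations, 0.192, 0.109 and 0.156, the criterion for pairing being over 0.1 in all 3), only the groups compared, leaving out both libraries low in mitochondrial RNA, and leaving out each library.

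The named genes were all 10 members, up to 4 called genes per role of the wider pathway in each depletion, and the 3 genes most like each of the 3 members with the smallest p against Control (log2 CPM, prior count 2). The members and the lists were chosen with earlier results of these data known. Of the pathway lists Psn, kul, lgd, NAK, SMRTER, E(spl)m1, wg, nrarp and Bob, and of the markers PPO1, vas and nos, were not matched to an ID by symbol.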

Additional observations from a re-analysis of the deposited data

How the results depend on the processing

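The 7 calls of core genes against Control kept their direction under every alternative run, and mam in Fl2d and N in Fl2d and YT521 also kept their side of the threshold in all 13. With only the groups compared in the model, the number of core genes called was 1 in Ime4 against Control, 3 in Ime4_CG7818 against Control, 2 in CG6422 against Control, 0 in YT521 against CG6422 and 1 in Fl2d against YT521. With no low-count filter it was 2 in Ime4_CG7818 and 2 in CG6422 against Control and 4 in Fl2d against Ime4_CG7818, DESeq2 called 2 in CG6422, and without both libraries low in mitochondrial RNA 1 was called in YT521 against CG6422. The cause of these moves was not tested.

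Over all genes, the compared groups alone gave 614 calls in Ime4, 1634 in Ime4_CG7818 and 2224 in Fl2d against Control (311, 955 and 3451 as reported). They gave 227 in CG7818 against Ime4, 181 in Ime4_CG7818 against Ime4 and 630 against CG7818, 1944 in Fl2d against Ime4_CG7818, 684 in YT521 against CG6422, 1881 in Fl2d against YT521 and 47 for the interaction term (42, 13, 181, 3083, 1077, 3263 and 9 as reported). DESeq2 called 107, 46, 287 and 29, and no low-count filter 176, 76, 320 and 46, in CG7818 against Ime4, Ime4_CG7818 against Ime4 and against CG7818, and the interaction term.

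Over 63 same-numbered pairs of libraries the correlation of deviations from the group means was -0.235 to 0.278 (median 0.0681), and 21 exceeded 0.1. In 1 of 21 pairs of groups, CG7818 and Ime4_CG7818, all 3 did; there a replicate block gave 258 calls over all genes (181 as reported) and 0 core genes, as without it. In every other pair of groups at least 1 of the 3 correlations was not over 0.1. CG7818 and YT521, for example, had 0.0816, 0.158 and 0.278. Whether those libraries share more than a number cannot be told from this criterion. With a replicate block 64 genes were called in CG7818 against Ime4 and 22 in Ime4_CG7818 against Ime4, and Nct in YT521 passed (-0.34, adjusted p = 0.0374).

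Leaving out 1 library at a time gave 135 to 193 calls over all genes in Ime4, 93 to 122 in CG7818, 463 to 753 in Ime4_CG7818, 844 to 1423 in CG6422 and 243 to 492 in YT521 against Control. It gave 16 to 32 in CG7818 against Ime4, 6 to 10 in Ime4_CG7818 against Ime4 and 23 to 61 against CG7818, 677 to 1017 in YT521 against CG6422, and 1 to 12 for the interaction term. In Fl2d it gave 2791 to 3457 against Control, 2269 to 3217 against Ime4_CG7818 and 2710 to 3280 against YT521. Core genes called ranged over 0 to 1 in CG7818, Ime4_CG7818 and CG6422, 2 to 4 in Fl2d and 1 to 2 in YT521 against Control, 2 to 3 in Fl2d against Ime4_CG7818, 0 to 3 in YT521 against CG6422 and 2 to 4 in Fl2d against YT521. Each such fit has 1 library fewer.

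Values of core genes that were never called changed sign in 55 cases over 26 gene comparisons, none larger than 0.11 on the log2 scale. Without TMM factors 1 level moved by more than 1 SD, that of Nct in CG7818, and 69 did not.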
